A study of Mus musculus with 3 samples.

Results

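The 37 genes described here encode the machinery of autophagy, in 8 roles: the ULK1 complex, the phosphatidylinositol 3-kinase (PI3K) complexes built on Beclin 1, the lipid transfer and lipid-binding proteins, the conjugation enzymes, the ATG4 proteases, the ATG8 proteins, the cargo receptors and the transcription factors Tfeb and Tfe3. They were taken by gene symbol from a table of 55536 gene IDs, of which 22028 are protein-coding, and all 37 were found. RNA came from effector memory CD4 T cells, helper T cells that have met antigen, of 1 male B6.SJL-Ptprca Pepcb/BoyJ mouse aged 5 months. This strain is a C57BL/6 line that carries the SJL form of the leukocyte surface protein CD45. The labels give no treatment and no single tissue of origin, and how the cells were sorted is not stated in the sources used here. One biosample gave 3 polyA-selected libraries, numbered as technical replicates 1, 2 and 3, so there is 1 group and no comparison between conditions. Every SD and p-value below measures only the spread between these libraries, which may be technical.

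Autophagy delivers cytoplasm to the lysosome inside a double-membraned vesicle. A kinase complex starts the process, a lipid kinase marks the site with phosphatidylinositol 3-phosphate, lipid is moved into a growing cup of membrane, and small ubiquitin-like ATG8 proteins are coupled to that membrane, where receptors bring cargo to them. In T cells the pathway is known for clearing mitochondria and endoplasmic reticulum as the cells mature, and for the survival of memory cells.

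Library 1 held 17475086 expected counts on annotated genes, library 2 held 15303744 and library 3 held 16882441, of which the autophagy genes took 0.358%, 0.383% and 0.373%. The T cell markers were present in the libraries: all 9 T cell and CD4 markers and all 6 effector memory markers reached 1 TPM (transcripts per 1e6 transcripts) in each. None of 6 B cell, 7 myeloid or 5 erythroid, platelet and stromal markers did; the myeloid markers summed to between 2.42 and 2.71 TPM in a library, with S100a8 and Elane at 0. Among 4 markers of other lymphocytes only Klrb1c passed, at 8.68 ± 0.823 TPM (SD, n = 3). Library 1 stood apart from the others: the common coefficient of variation that edgeR fitted was 0.334 over the 3 libraries and 0.0724 over libraries 2 and 3 alone.

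The autophagy genes were broadly present. Detection, which required 1 TPM or more in all 3 libraries, was met by 35 of 37 (94.6%), beside 9900 of 22028 protein-coding genes (44.9%). The median of their mean TPM was 49.9, and 53.2 over the 35 detected, beside 28.9 over all detected protein-coding genes. Over annotated coding transcripts alone the median was lower, 26.2 over all 37 and 27.4 over the 35 detected, beside 20.04 over the detected protein-coding genes. A mean of at least 100 TPM was reached by 8 genes, 26 lay between 10 and 100, and 1, Optn, lay between 1 and 10. Together they summed to 3413 TPM in library 1, 3343 in library 2 and 3208 in library 3, so the total differed little although single genes differed several-fold. The plot of levels by library sets out all 37.

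**Figure D1:**
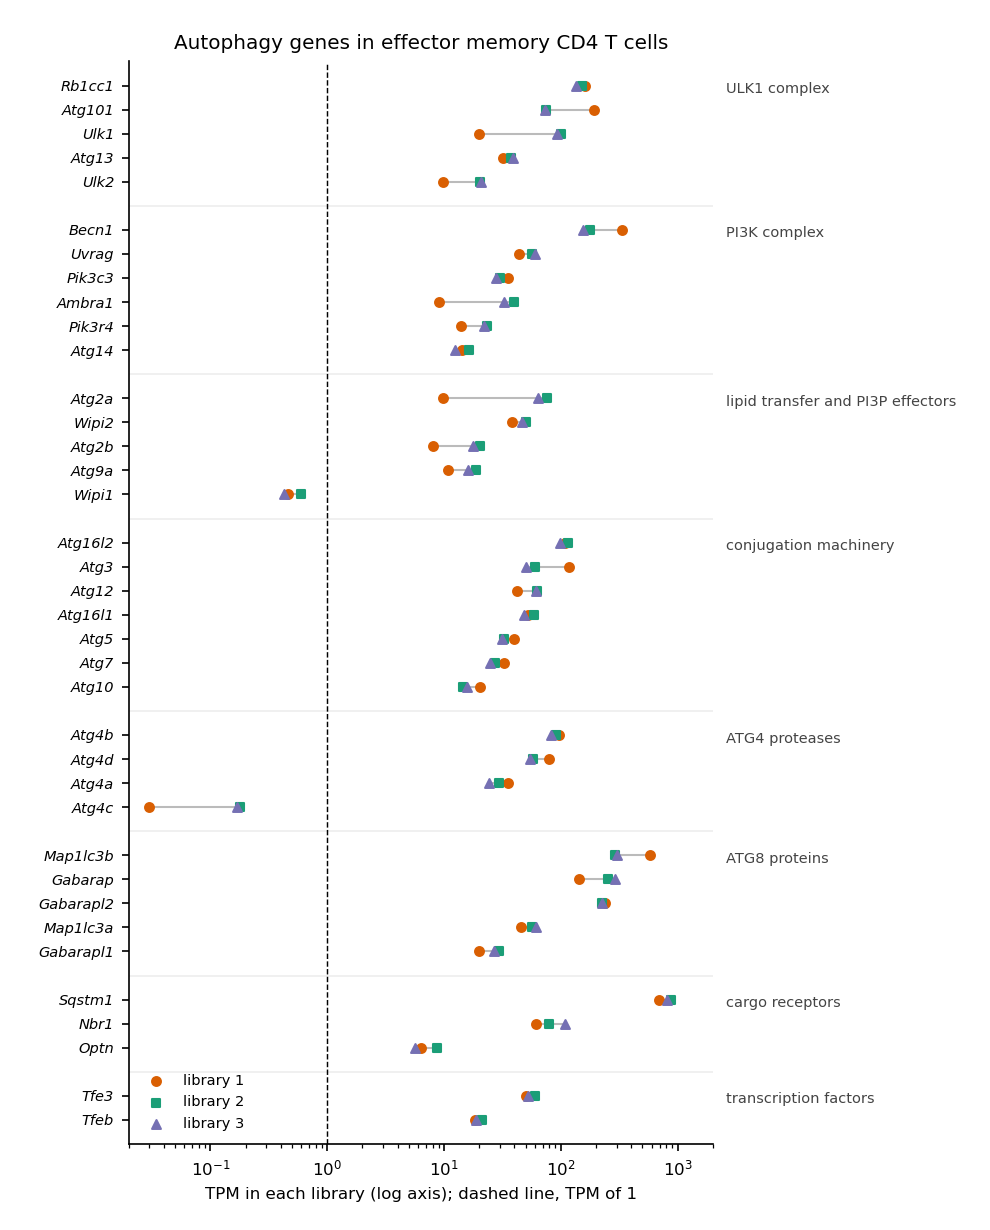
TPM (log axis) of each of the 37 autophagy genes in libraries 1, 2 and 3, grouped by role and ordered by mean within a role. Grey lines join the lowest and the highest library. Sqstm1 and Map1lc3b lead, Wipi1 and Atg4c lie left of the dashed line at 1 TPM, and Atg2a has its library 1 point farthest from the other points among detected genes.

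Differences between libraries were tested against counting error with a chi-square test on rounded expected counts, for every gene with at least 30 counts, and a gene was called at a Benjamini-Hochberg adjusted p below 0.05 over all genes tested. By this test 30 of the 35 autophagy genes tested varied, beside 75.7% of the 13177 genes tested in all. Of these, 6 were at least 1.5-fold above the mean of libraries 2 and 3, written below as higher in library 1 (background 23.4%): Atg101, Becn1, Atg3, Atg4a, Atg4d and Map1lc3b. Another 7 were at least 1.5-fold lower in library 1 (background 23.8%): Ulk1, Ulk2, Ambra1, Atg2a, Atg2b, Gabarap and Nbr1. The other 17 called genes differed by less, and 5 were not called: Atg13, Atg14, Atg4b, Tfeb and Tfe3. Of these 5, Atg14, Atg4b and Tfe3 were called with DESeq2 size factors, and Atg13 with them under library totals and under the length scaling described below, so their side of the threshold depended on the scaling. The shares past 1.5-fold were near the background, and the median size of the log2 difference was 0.43 in the autophagy genes and 0.60 over all genes tested. Between pairs of libraries, 28 were called between libraries 1 and 2 (background 74.1%), 29 between libraries 1 and 3 (background 75%) and 6 between libraries 2 and 3 (background 16.3%). Those 6 were Rb1cc1, Ambra1, Atg9a, Map1lc3b, Gabarap and Sqstm1. The coefficient of variation edgeR fitted had a median of 0.274 over the autophagy genes and 0.292 over all 12095 genes fitted; over libraries 2 and 3 alone the medians were 0.0617 and 0.0775.

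Transcript length moved with the library 1 difference. Over all genes tested, in 20 bins of transcript length, the median log2 difference of library 1 from libraries 2 and 3 was 0.44 for transcripts of 970 to 1168 bases and -0.86 for those above 4895 bases. Spearman's rho between length and the difference was -0.53 over the 35 autophagy genes and -0.40 over 9885 detected protein-coding genes, with the same libraries behind every point. The longest transcripts among the members belong to Atg2b, Ulk2, Atg2a and Ambra1, and all of these were lower in library 1. After the median of its length bin was taken off, the difference was still at least 1.5-fold for 10 of the 13 genes; Ulk2 (-0.15), Atg4a (0.42) and Atg4d (0.58) were the exceptions. With counts scaled in each library by length bin, 29 autophagy genes were called (72.9% of all genes), and Ulk2, Pik3r4, Atg10, Atg12 and Optn no longer were. In the separate whole-number counts, made by the authors on an older annotation, all 13 had the same sign and 9 were past 1.5-fold.

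**Figure D2:**
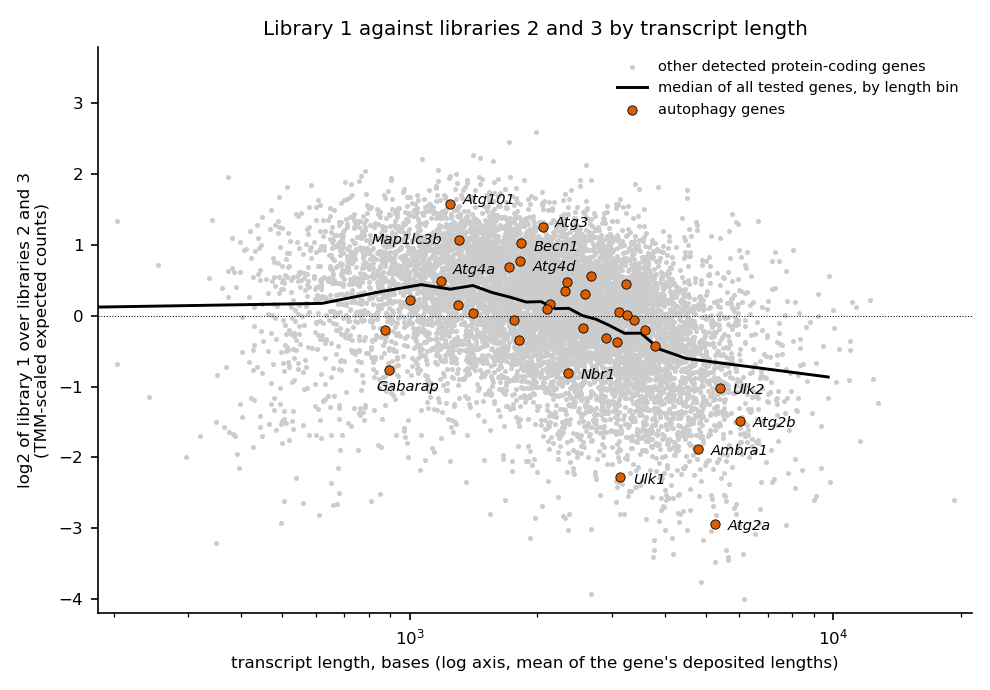
Log2 of library 1 over the mean of libraries 2 and 3 (TMM-scaled expected counts) against transcript length in bases (log axis), for the 35 autophagy genes tested (orange), the other detected protein-coding genes (grey) and the median of all tested genes in 20 length bins (line). Atg2a (-2.94), Ulk1 (-2.28) and Ambra1 (-1.88) lie lowest among the autophagy genes and Atg101 (1.58) highest.

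The ULK1 complex, the kinase complex that starts autophagosome formation, was detected with all 5 subunits. Rb1cc1, the large scaffold subunit, had 160, 152 and 135 TPM in libraries 1, 2 and 3. Over all transcripts this was the highest mean of the complex (149 ± 13.0, SD, n = 3). The leading coding transcript of Rb1cc1, of 2712 bases, had 70.15, 64.19 and 53.78 TPM. That was below the leading coding transcript of Atg101, at 188, 70.7 and 69.7 TPM. The Rb1cc1 coding transcript of 5707 bases had 20.45, 20.64 and 16.78 TPM, and that of 7607 bases 0.67, 0.31 and 0.49. Whether the shorter forms encode the whole subunit was not tested. Ulk1, the main kinase of the complex, lies on chromosome 5 (110784488 to 110810097 in GRCm38, minus strand). It had 19.98 TPM in library 1, 99.62 in library 2 and 93.49 in library 3. Library 1 was the low one for Ulk1, with 608 expected counts against 2861 and 3097 (log2 difference -2.28) and 284 whole-number counts against 1603 and 1705 (log2 difference -2.61). The paralogue Ulk2 was the lowest member of the complex, with 9.89, 20.3 and 20.6 TPM, and was likewise low in library 1 (log2 difference -1.01, chi-square adjusted p = 4.45e-48), a call that was lost under the length scaling. The TPM ratio of Ulk1 to Ulk2 was therefore 2.02 in library 1, 4.90 in library 2 and 4.55 in library 3. Atg101, which stabilises Atg13 in the complex, ran the other way, with 192 TPM in library 1, 74.1 in library 2 and 72.7 in library 3 (log2 difference 1.58, adjusted p = 1.44e-287). Atg13, the adaptor between kinase and scaffold, had 31.8, 37.2 and 39.3 TPM and was not called (adjusted p = 0.0520). Subunits of 1 complex thus differed between libraries in both directions.

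All 6 genes of the PI3K complexes were detected. Becn1, which encodes Beclin 1, lies on chromosome 11 (101285952 to 101302286, minus strand). Over all transcripts Becn1 was the highest, at 332, 179 and 155 TPM in libraries 1, 2 and 3. Library 1 was above the others by 1.03 on the log2 scale. The lipid kinase itself, Pik3c3, had 35.4, 30.5 and 27.9 TPM, and its regulatory partner Pik3r4 had 14.1, 23.5 and 22.0 TPM; both were called, by less than 1.5-fold. Beclin 1 enters 1 complex with Atg14, which sends it to new autophagosomes, and another with Uvrag, which works on endosomes. Atg14 was the lowest gene of this role, at 14.2, 16.4 and 12.4 TPM with no call (adjusted p = 0.0684), and Uvrag had 43.9, 57.2 and 59.7 TPM. Ambra1, a Beclin 1-binding scaffold, had 9.02, 40.1 and 32.8 TPM, and library 1 was low (log2 difference -1.88, adjusted p = 1.99e-171). Becn1 and Ambra1 thus had their extreme values in the same library on opposite sides.

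Among the genes that move lipid into the growing membrane or read its phosphatidylinositol 3-phosphate, 4 of 5 were detected. Atg2a, a bridge-like lipid transfer protein encoded on chromosome 19 (6241668 to 6262335, plus strand), had the widest spread of the detected genes, with 9.76 TPM in library 1, 76.2 in library 2 and 63.7 in library 3. The expected counts behind these values were 478, 3584 and 3791, and the log2 difference was -2.94, or -2.90 in the whole-number counts. Its paralogue Atg2b had 8.06, 20.5 and 17.6 TPM, also lowest in library 1 (log2 difference -1.48, adjusted p = 1.18e-90). Wipi2, which binds the marked lipid and recruits the conjugation machinery, had 38.2, 49.9 and 46.3 TPM. Atg9a, the membrane protein of the seed vesicles, had 10.8, 18.9 and 15.9 TPM. Wipi1 was not detected, at 0.46, 0.60 and 0.43 TPM from 10, 5 and 9 expected counts. In bulk RNA, few cells with the transcript and little transcript per cell cannot be told apart for such a gene.

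All 7 genes of the conjugation machinery were detected. All 7 were also called between libraries, where 75.7% of all genes were, and 1 of them, Atg3, by more than 1.5-fold. Atg7 is the activating enzyme shared by the ATG12 and ATG8 conjugation pathways, Atg10 passes ATG12 on to ATG5, and Atg3 passes the ATG8 proteins on to lipid. Atg3 had 117 TPM in library 1, 59.8 in library 2 and 50.4 in library 3, so library 1 was high (log2 difference 1.26, adjusted p = 1.57e-204). Atg7 had 32.7, 27.5 and 24.6 TPM, and Atg10, the lowest of the role, had 20.5, 14.5 and 15.6 TPM. The products of Atg12, Atg5 and Atg16l1 form the complex that directs lipidation. Atg12 had 42.5, 62.0 and 61.2 TPM, Atg5 had 39.5, 32.5 and 31.2 TPM, and Atg16l1 had 52.3, 58.5 and 48.7 TPM. By its expected counts Atg16l1 was instead highest in library 1, with 1532 against 1192 and 1307 (log2 difference 0.30). The highest gene of the role was Atg16l2, a paralogue of Atg16l1, at 109, 116 and 97.9 TPM. Its TPM ratio to Atg16l1 was 2.08, 1.99 and 2.01 in libraries 1, 2 and 3, steady where the ratios of the Ulk and Atg2 pairs were not. Atg2a to Atg2b stood at 1.21 in library 1, 3.71 in library 2 and 3.62 in library 3. The rank of Atg16l2 and its ratio to Atg16l1 are over all transcripts. Annotated coding transcripts carried a mean of 23.1% of Atg16l2 TPM and 66.4% of Atg16l1 TPM. The leading coding transcript Atg16l2-202 had 22.8, 25.3 and 19.9 TPM, below Atg16l1-202 at 29.5, 25.8 and 23.9, so for these the order was reversed.

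ATG4 proteases trim new ATG8 proteins and later free them from membrane. Atg4b, known as the most active of them, was the highest at 97.4, 90.8 and 83.1 TPM and was not called (adjusted p = 0.0615). Atg4d had 79.5, 58.0 and 54.6 TPM and Atg4a 35.5, 29.5 and 24.5 TPM, both higher in library 1. This order is over all transcripts. Annotated coding transcripts carried a mean of 17.5% of Atg4b TPM, 8.70% of Atg4d TPM and 67.9% of Atg4a TPM. The leading coding transcript Atg4b-201 had 11.6, 9.40 and 7.55 TPM, below Atg4a-201 at 26.1, 19.1 and 16.0. Atg4c was not detected, with 0.03, 0.18 and 0.17 TPM from 1, 5 and 1 expected counts. Of the 50-base windows of Atg4a-201, 63.6% also lie in the transcript of its pseudogene Atg4a-ps, so its level depends on how reads were shared between them.

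The ATG8 proteins are made with a tail that ATG4 removes to expose a glycine, and it is this glycine that is joined to lipid. The last 45 coding bases of the principal annotated transcript of each gene are printed here because they carry that site, from the GENCODE M21 transcripts on GRCm38, all on the plus strand, 5′ to 3′, with the glycine codon in capitals and the stop codon last.
Map1lc3a (chr2:155277593-155277637): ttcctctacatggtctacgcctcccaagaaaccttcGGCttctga
Map1lc3b (chr8:121596726-121596770): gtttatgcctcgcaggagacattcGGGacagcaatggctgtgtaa
Gabarap (chr11:69994480-69994524): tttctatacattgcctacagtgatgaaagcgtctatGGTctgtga
Gabarapl1 (chr6:129541123-129541167): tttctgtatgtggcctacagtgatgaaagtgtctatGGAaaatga
Gabarapl2 (chr8:111952361-111952405): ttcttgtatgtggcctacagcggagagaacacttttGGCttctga
Map1lc3b has 5 codons between the glycine and the stop, and the other 4 have 1. Over the whole coding sequence, translated and aligned, Gabarap and Gabarapl1 shared 86.3% of residues and Map1lc3a and Map1lc3b 81.8%, while pairs drawn from both subfamilies shared between 31.6% and 41.9%.

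Each of the 5 ATG8 genes was detected, and 3 of them were among the 4 highest autophagy genes. Map1lc3b, the LC3 protein most used as an autophagosome marker, had 577 TPM in library 1, 288 in library 2 and 303 in library 3, and library 1 was high by 1.07 on the log2 scale. Gabarap had 143, 255 and 293 TPM, and library 1 was low (log2 difference -0.76, adjusted p = 2.08e-75). Libraries 2 and 3 also differed for Gabarap (adjusted p = 1.68e-09). Gabarapl2 was steadier in TPM, at 239, 227 and 224, with the lowest ratio of highest to lowest TPM of any autophagy gene. By its counts Gabarapl2 was called in the chi-square test (adjusted p = 1.0e-08, log2 difference 0.22). Its coefficient of variation was 0.258, above that of Tfeb (0.241). Map1lc3a had 45.7, 57.1 and 61.0 TPM and Gabarapl1, the lowest of the family, had 19.8, 29.4 and 26.6 TPM.

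**Figure D3:**
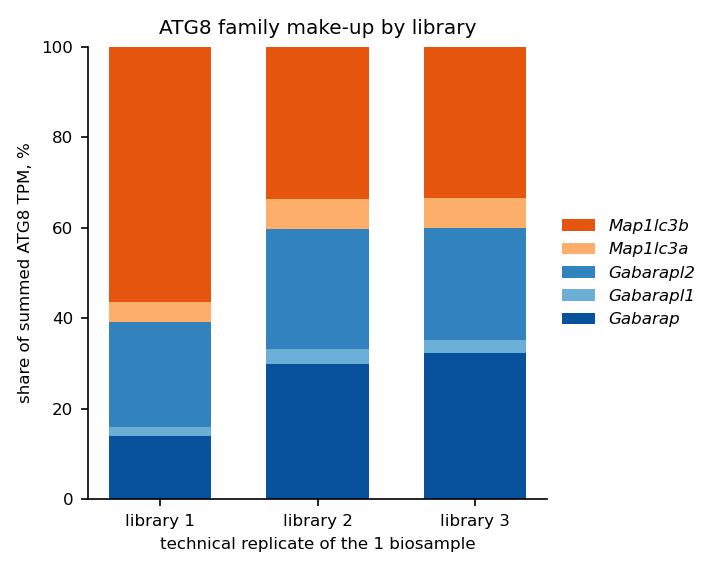
Share of the summed TPM of the 5 ATG8 genes carried by each, as stacked bars for libraries 1, 2 and 3. Map1lc3b makes up 56.3% in library 1 and 33.7% and 33.4% in libraries 2 and 3, while Gabarap makes up 14.0% in library 1 and 29.8% and 32.3% in the others.

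The GABARAP subfamily, which is Gabarap, Gabarapl1 and Gabarapl2 together, carried 39.2% of ATG8 TPM in library 1, 59.7% in library 2 and 59.9% in library 3. The mean was 52.9% ± 11.9 (SD, n = 3). Which subfamily was larger thus depended on the library. It depended also on the transcripts counted: over protein-coding transcripts alone the subfamily's mean share was 39.5%. That value is a mean over the 3 libraries, so it does not give the larger subfamily in each. It also counts the short Map1lc3b transcripts named below as coding. Gabarapl2-203, annotated as retaining an intron, carried 74.6%, 72.3% and 70.8% of Gabarapl2, and Gabarapl2-201, the coding form, 25.5%, 27.4% and 28.5%. Gabarap was led by Gabarap-202 at 49.6%, 52.2% and 52.3%, which is not the transcript used for the coding end above. Gabarap-201, the principal form that was used, carried 13.0%, 14.7% and 14.3%. Map1lc3b was led by short coding transcripts: Map1lc3b-205 carried 47.0%, 31.9% and 32.3%, and Map1lc3b-203 carried 26.2%, 38.3% and 40.9%. Map1lc3b-201, whose coding end is printed above, carried 24.9%, 20.9% and 18.7%. Gabarapl1-201 was nearly the sole transcript of its gene (98.1%, 100% and 100%). Map1lc3a was led by transcripts listed without a coding frame, with 64.9%, 38.4% and 59.2% on Map1lc3a-203 and 16.7%, 42.2% and 21.4% on Map1lc3a-202. The coding Map1lc3a-201 carried 18.4%, 19.4% and 19.3%.

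The whole-number counts gave Map1lc3b 144, 104 and 106 and Gabarapl2 34, 23 and 34, which is 2.39% and 1.39% of their expected counts, beside a median of 51.5% over 9797 detected protein-coding genes. Copies elsewhere in the genome share sequence with both genes: 37.8% of the 50-base windows of Map1lc3b-205 and 17.0% of those of Gabarapl2-201 occur in annotated transcripts of other genes, among them Gm6055 and Gm3724. Gm20388, annotated across Map1lc3b on the same strand, had 14.6, 9.15 and 7.47 TPM. From the whole-number counts Map1lc3b was not called between libraries (log2 difference 0.38), nor was Gabarapl2. Whether that sharing sets the low counts was not tested, and the levels of both genes are uncertain to that extent. Atg12, at 11.2%, and Atg4a, at 15.2%, were the next lowest, and the other members ranged up to 78.9%. Shared windows were also many in Atg9a-201 (47.8%, with Gm29253) and Gabarapl1-201 (18.6%).

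Cargo receptors bind ubiquitin-tagged material on one side and ATG8 proteins on the other. Sqstm1, the best known of them, on chromosome 11 (50199366 to 50210827, minus strand), was the most abundant autophagy gene, at 696 TPM in library 1, 871 in library 2 and 810 in library 3 (793 ± 88.7, SD, n = 3). Sqstm1 was called, with a log2 difference of -0.05 for library 1, and the coding Sqstm1-202 carried 77.3%, 75.9% and 72.8% of it. Nbr1 had 61.1, 79.0 and 107.8 TPM. A 63-base transcript, Nbr1-221, took 42.6%, 0% and 32.7% of these, and without it Nbr1 stood at 35.1, 79.0 and 72.6 TPM, lower in library 1 as its counts were (1240 against 2145 and 2219, log2 difference -0.81). Its leading long coding transcript carried 17.9%, 29.4% and 20.7%, and the next, Nbr1-204, 14.1%, 29.9% and 15.1%. Optn, which links ubiquitin-tagged mitochondria and bacteria to ATG8, was the lowest detected autophagy gene, at 6.39, 8.63 and 5.61 TPM, with Optn-202 its leading transcript (76.2%, 61.1% and 42.1%).

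Tfeb and Tfe3 drive transcription of lysosomal and autophagy genes when they enter the nucleus. Tfe3 had 50.6, 60.5 and 52.1 TPM and Tfeb 18.5, 21.3 and 18.8 TPM in libraries 1, 2 and 3. Neither was called with TMM scaling (adjusted p = 0.142 for Tfe3 and 0.531 for Tfeb), and their ratio was 2.74, 2.84 and 2.76. RNA levels carry no information on where the proteins were.

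Much of the signal of several genes was assigned to transcripts that the annotation lists as not coding. The coding share of TPM had a median of 70.0% over the 35 detected autophagy genes, beside 85.2% over all detected protein-coding genes, and it was under 50% in 8 of them, beside 16.8% of detected protein-coding genes. These 8 were Atg4d (8.70%), Becn1 (11.4%), Uvrag (12.3%), Atg4b (17.5%), Map1lc3a (19.1%), Atg16l2 (23.1%), Gabarapl2 (27.1%) and Atg10 (42.3%). Becn1-201, annotated as a target of nonsense-mediated decay, carried 47.4%, 43.3% and 43.0% of Becn1. Uvrag-202, with 52.3%, 50.1% and 41.4%, and Atg4d-203, with 52.6%, 45.3% and 43.8%, both retain an intron by annotation. Atg16l1, by contrast, was led by coding forms, Atg16l1-202 at 56.3%, 44.1% and 49.1% and Atg16l1-201 at 20.7%, 12.4% and 14.7%. One transcript held over 50% of the gene in every library in 14 of 35 autophagy genes (40%), beside 57.3% of 9900 detected protein-coding genes. Over coding transcripts alone the number was 28 of 35 (80%), beside 75.7% of detected protein-coding genes. These shares are estimates from short reads, and 7 of the genes (Atg16l2, Atg2b, Atg4b, Atg4d, Atg9a, Rb1cc1 and Sqstm1) overlap a detected gene on the other strand; whether strand was used in counting is not stated.

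**Figure D4:**
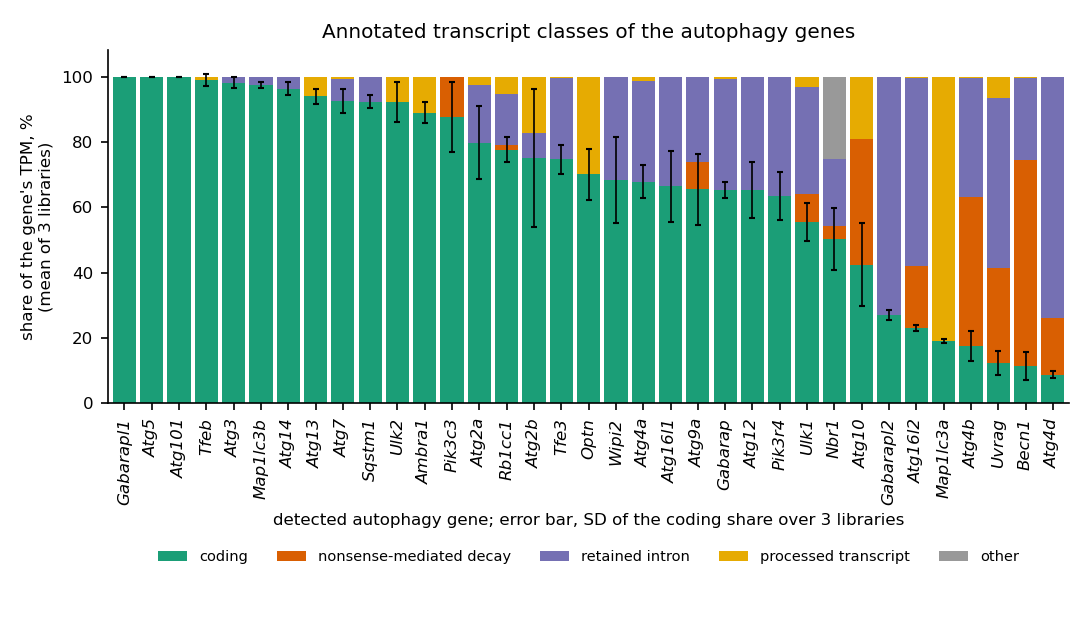
Mean share of each detected autophagy gene's TPM by annotated transcript class, stacked to 100% and ordered by coding share, with bars for the SD of the coding share over the 3 libraries. Gabarapl1, Atg5 and Atg101 stand at 100% coding, and Atg4d, at 8.70%, is lowest.

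Genes around the core machinery were present too, in lists that were written for this work. Of 7 partners of the initiation and lipid kinases 6 were detected, led by Vmp1 (248 ± 67.4 TPM), Sh3glb1 (150 ± 30.1) and Nrbf2 (53.0 ± 3.21), with Rubcnl undetected. Of 5 other core genes 4 were detected, led by Tecpr1 (134 ± 63.9), Wdr45 (79.4 ± 5.47) and Wdr45b (70.9 ± 9.03), the last 2 being the other lipid readers of the Wipi family. Atg9b, the paralogue of Atg9a, was undetected. Of 11 other cargo receptors 10 were detected, led by Tax1bp1 (368 ± 182), Sec62 (108.4 ± 32.7) and Ccpg1 (100.6 ± 16.5), and Wdfy3 was undetected. The mitophagy list had 9 of 10 detected, led by the receptors Bnip3l (391 ± 103) and Fkbp8 (265 ± 48.4) and the kinase Pink1 (129 ± 12.4). All 13 genes for fusion with the lysosome were detected, led by Rab7 (300 ± 122), Vps16 (226 ± 31.7) and Vamp8 (153 ± 65.9). The lysosome list had 23 of 24 detected, led by Ctsb (338 ± 128), Atp6v0e (309 ± 133) and Ctsd (235 ± 22.6), and Cd63 was undetected. In the chi-square test 5 of 7 initiation partners, 4 of 4 other core genes, 8 of 10 cargo receptors, 9 of 9 mitophagy, 12 of 13 fusion and 22 of 23 lysosome genes were called between libraries, beside the 75.7% of all genes.

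**Figure D5:**
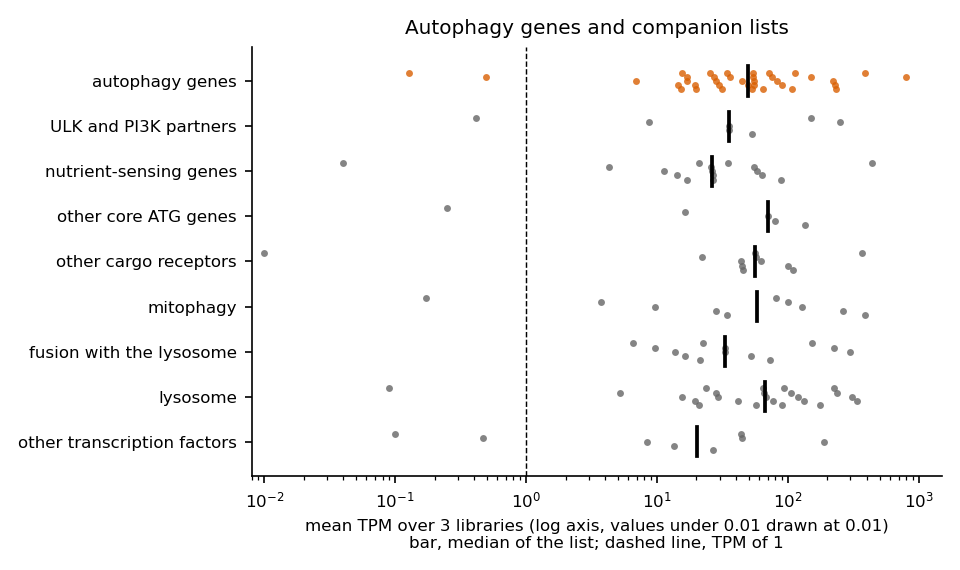
Mean TPM over the 3 libraries (log axis) of the 37 autophagy genes (orange) and of the genes of 8 companion lists (grey), with a bar at each list's median. The median of the autophagy genes, 49.9, lies between that of the lysosome list, 66.8, and that of the nutrient-sensing genes, 26.5.

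Tfeb and its relatives bind an E-box, CACGTG, which reads the same on both strands. It was searched for in the RefSeq promoter windows on GRCm38.p6, which run from 250 bases before a RefSeq start to 50 after. Such a start can lie inside the gene as GENCODE draws it. Of the 31 autophagy genes with such a window, 4 held the motif (12.9%), beside 12.3% of 7904 detected protein-coding genes and 8.09% of 27025 genes in all. In the lysosome list 9 of 17 did (52.9%). The 4 matches are printed here with 20 bases on each side, in the direction of transcription and with the motif in capitals, to show where the letters lie.
Atg7 (chr6:114670944-114670989, plus strand): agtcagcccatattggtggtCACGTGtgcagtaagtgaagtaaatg
Atg5 (chr10:44268305-44268350, plus strand): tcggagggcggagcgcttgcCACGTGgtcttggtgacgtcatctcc
Atg14 (chr14:47568410-47568455, minus strand): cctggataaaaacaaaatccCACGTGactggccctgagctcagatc
Atg3 (chr16:45158715-45158783, plus strand): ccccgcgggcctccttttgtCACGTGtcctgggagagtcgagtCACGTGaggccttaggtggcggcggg
Counted to its first base, the motif lies in Atg3 at 94 and 71 bases before the RefSeq start, in Atg7 at 132, in Atg5 at 14 and in Atg14 at 1. The RefSeq starts of Atg7 and Atg14 lie 27999 and 2215 bases inside the GENCODE genes, so these windows are at internal starts, whereas those of Atg3 and Atg5 lie within 44 bases of the GENCODE start. Of these genes Atg3 was at least 1.5-fold higher in library 1 and the other 3 did not differ by that much. Among all genes tested 23.4% were that much higher in library 1 and 23.8% lower. A link between the motif and the library differences was not tested. A match is a run of letters and not a measured binding site, and its absence from a window says nothing of the factor.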

How the data were processed

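The study deposited polyA RNA sequencing of 3 libraries of 1 biosample on mouse build mm10, per the labels. Per the file headers and the accompanying descriptions, the deposited gene and transcript tables use GENCODE M21 and hold expected counts, which are estimates in which a read can be split over transcripts. They also hold TPM and FPKM, which the authors scaled within each library, transcript lengths, and, in the transcript tables, the percent of a gene's TPM that a transcript carries. A further deposited table on GENCODE M4 has whole-number counts and no header. The sources used here do not give the aligner, the quantifier or the use of strand.

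Rows without a mouse gene ID held 0.304%, 0.298% and 0.226% of expected counts in libraries 1, 2 and 3 and were left out. Levels are deposited TPM. Expected counts were rounded to whole numbers and scaled by TMM (edgeR 4.0.16, R 4.3.3). Genes with at least 30 counts were tested with Pearson's chi-square over the libraries, adjusted by Benjamini and Hochberg over all genes. The log2 difference of library 1 is its log2(scaled count + 0.5) less the mean of libraries 2 and 3. Coefficients of variation came from an intercept-only edgeR fit, and no test between groups was possible with 1 group. DESeq2 1.42.0 size factors, library totals, no count minimum, a division by the median overdispersion, the M4 counts, FPKM, coding transcripts only and each library left out in turn were tried as alternatives, and the scaling by length bin and the median over coding transcripts were added after the data were seen. The chi-square step and the fit were tested on simulated data. Python 3.11.15, scipy 1.17.1 and biopython 1.88 were used. Counts are of reads without molecular identifiers, so the chi-square sets libraries against counting error only. Samples were grouped by the labelled cell type.

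The members and the companion lists were chosen with earlier results of these data known. By rule, values in each library are printed for the 3 highest genes, the highest and lowest of each role, the undetected, and those with libraries at least 2-fold apart; the others were added because the roles are small. Transcripts named outside the ATG8 genes, the cargo receptors and Atg16l1 were chosen after their values were seen. The undetected gene of the mitophagy list is not reported here.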

Additional observations from a re-analysis of the deposited data

How the results depend on the processing

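The detected count stayed at 35 under each alternative tried. The number of varying genes was 33 with DESeq2 size factors or library totals, 29 by length bin and 29 with no count minimum. These stayed within 1.5 times of the value given. When 1 of 3 libraries is left out, a mean cannot move by 1 SD, so such a limit could not test the TPM of each gene. Without library 1, mean TPM went from 71.0 to 96.6 in Ulk1, from 112.9 to 73.4 in Atg101 and from 107.7 to 107.1 in Atg16l2. The number of varying autophagy genes was 13 of 35 after division by the median overdispersion of 14.3 (27.8% of all genes) and ranged from 6 to 29 with 1 library left out, the 6 being without library 1. Among the 13 genes at least 1.5-fold apart in library 1, Atg4a was not called after that division, and neither Atg4a nor Map1lc3b was called from the whole-number counts, which called 22 of 35. The number at least 1.5-fold higher and lower in library 1 was 7 and 7 with DESeq2 size factors and 5 and 7 with library totals. The median level was 29.7 in FPKM and 26.2 TPM over coding transcripts. The mean GABARAP share of ATG8 TPM was 39.5% over coding transcripts, and the number of genes with 1 transcript above 50% became 28, since fewer transcripts then share each gene. No paired analysis was possible because there is 1 group. Depth limits Wipi1 and Atg4c, which had under 30 counts in all and were not tested.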

Other observations

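Of 16 listed genes for nutrient sensing upstream of autophagy, which encode kinases, GTPases and their subunits, partners or regulators, 15 were detected. Rheb, the small GTPase that activates mTOR, was highest, with 698 TPM in library 1, 293 in library 2 and 320 in library 3, followed by Prkag1 (88.0 ± 27.0 TPM, SD, n = 3) and Stk11 (62.9 ± 5.49). Prkaa2, one of the catalytic subunits of AMP-activated kinase, was undetected, with 9 counts in all, while its paralogue Prkaa1 had 25.6, 27.9 and 26.4 TPM and was not called. In the chi-square test 14 of 15 tested genes were called (75.7% of all genes), 4 of them at least 1.5-fold higher in library 1 (23.4% of all genes) and 5 lower (23.8%). Mtor itself was among the lower ones by its counts (log2 difference -1.77), though its TPM differed less, at 13.5, 18.2 and 19.3.

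Of 8 further transcription factors linked to autophagy 6 were detected, led by Atf4, Usf1 and Foxo1. Atf4, which acts in the integrated stress response, had 54.5 TPM in library 1 against 245 and 263 in libraries 2 and 3. Foxo1 had 24.8, 56.0 and 50.2 TPM and was lower in library 1, whereas Foxo3 had 19.8, 9.69 and 10.7 TPM and was higher there. Mitf and Tfec, the other members of the Tfeb family, were undetected, at means of 0.47 and 0.1 TPM.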
